A study of Drosophila melanogaster with 80 samples.

Results

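Cryptochrome (cry, FlyBase FBgn0025680) is described here through every library of a study of constant and fluctuating temperature in Drosophila melanogaster. It is the row of the deposited count table whose FlyBase identifier maps to that symbol, 1 of 17697 genes in the table. RNA was sequenced from whole larvae, whole adult males and whole adult females. Fluctuating animals passed through a temperature cycle around a mean of 19 °C with an amplitude of 8 °C, between 27 °C and 11 °C, and control animals stayed at 19 °C. Sampling fell at 2 points of the cycle, one high and one low, in both regimes, so that the points of the constant regime differ by the time of sampling and not by temperature. The treatment of larvae lasted 7 days, with sampling after 6 cycles, and that of adults 13 days, with sampling after 12 and 6 cycles. Each of the 20 groups had 4 biological replicates, which gives 80 libraries, 16 of larvae, 32 of males and 32 of females. The sources used here give neither the light schedule nor the hour of sampling nor the strain. The question put to the data is whether the time-of-day difference of cry is the same under fluctuation as at constant temperature.

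The cry gene encodes a flavoprotein of the photolyase family that serves flies as a blue-light photoreceptor of the circadian clock. In light the protein binds Timeless, and the F-box protein Jetlag then directs Timeless to degradation, which resets the clock. In fly heads and bodies the cry transcript is known to cycle with the day, in a phase near that of Clk and opposite to that of per and tim, downstream of the loop formed by the repressor Vrille and the activator Pdp1. In several peripheral tissues Cryptochrome is also known as a component of the local clock.

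In the BDGP6.54 annotation cry lies on chromosome 3R, 19212154 to 19215442, on the + strand, with 1 annotated transcript of 4 exons and 1896 exonic bases. A long noncoding RNA gene, lncRNA:CR46393 (3R, 19212154 to 19212727, + strand), starts at the same base and is not analysed here. The gene vib (FBgn0267975, 3R, 19215434 to 19226651, − strand), which encodes a phosphatidylinositol transfer protein, overlaps the last bases of the last cry exon. The labels give no strand information, so reads from the overlap with vib cannot be assigned to one gene or the other. The noncoding RNA gene lies on the same strand as cry, so strand information would not separate reads from the bases they share. In the comparison of the high with the low point, vib did not move with cry. Its log2 fold change under fluctuation was 0.02 in larvae (adjusted p = 0.937), -0.22 in males (adjusted p = 0.000982) and -0.11 in females (adjusted p = 0.00767), and at constant temperature it was 0.13, -0.1 and -0.03 in the same order, with no adjusted p below 0.221.

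Library totals ran from 87.1 to 130.7 M (1000000 counts), and cry had 450 to 1194 counts per larval library, 4809 to 30833 per male library and 1629 to 9743 per female library. Of the deposited values from 1 to 24, 36.8% were multiples of 4, against 25% if spread evenly. A sequenced fragment may thus be worth about 4 counts, and the depth behind a value may be lower than its count. How the counts were derived was not tested. Levels below are counts per 1000000 (CPM) of the library total. Fold changes and adjusted p-values are from the quasi-likelihood test of edgeR on TMM-scaled counts. The p-values were adjusted by Benjamini-Hochberg over all genes of a fit, with 0.05 as the threshold. The standard error (SE) of a log2 fold change is its absolute value divided by the square root of the F statistic of that test. An interval is the 95% interval of a log2 fold change, built from that SE. Of the male libraries 3 stood apart from their groups. Replicate 2 of constant males at the low point after 6 cycles held ovarian transcripts, with 14298 CPM summed over 15 ovary marker genes, against 705 to 771 CPM in the other 3 libraries of its group, and 72.4 CPM of cry, against 83.8 to 96.4 CPM. Replicate 8 of constant males at the high point after 12 cycles was low in photoreceptor markers, with 1903 CPM over 17 genes, against 5639 to 6393 CPM in the rest of its group, while its cry level of 301 CPM lay within their 275 to 302 CPM. Replicate 1 of fluctuating males at the high point after 6 cycles was low in neuron markers, with 1087 CPM over 17 genes, against 1970.1 to 2309 CPM in the rest of its group. It was also low in the summed clock loop genes, with 597 CPM against 717 to 758 CPM. Its cry level was 202 CPM, against 207 to 229 CPM. Without these 3 libraries, and without the first 2 alone, every male result on cry kept its call and direction, except the difference between 12 and 6 cycles in constant males at the low point.

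The level of cry separated the stages, the sexes and, in adults, the sampling points. Larvae carried 6.59 ± 1.95 CPM (SD, n = 16), males 159.5 ± 87.5 CPM (SD, n = 32) and females 47.2 ± 25.7 CPM (SD, n = 32). Most of the spread within a sex was between the high and the low point. In bulk samples fewer cells that express cry and less cry RNA per cell cannot be told apart.

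In fluctuating males at the high point cry stood at 221, 250.1, 225 and 239.5 CPM after 12 cycles and at 202, 215, 229 and 207 CPM after 6 cycles. At the low point of the same regime it stood at 61.4, 68.9, 63.5 and 68.8 CPM after 12 cycles and at 48.0, 56.2, 58.7 and 60.9 CPM after 6 cycles. All 8 fluctuating libraries of the high point therefore lay above all 8 of the low point, with 202 CPM as the lowest high value and 68.9 CPM as the highest low value. Constant males at the high point had 275, 279.8, 302 and 301 CPM after 12 cycles and 228, 226, 232 and 238 CPM after 6 cycles. At the low point constant males had 106, 113, 101 and 82.8 CPM after 12 cycles and 96.4, 72.4, 83.8 and 93.0 CPM after 6 cycles. The points did not overlap at constant temperature either, and the constant low libraries were all above the fluctuating low libraries.

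Fluctuating females at the high point had 65.3, 73.1, 67.4 and 57.2 CPM after 12 cycles and 70.5, 71.5, 70.1 and 63.2 CPM after 6 cycles. Fluctuating females at the low point had 15.5, 26.3, 23.1 and 17.6 CPM after 12 cycles and 17.8, 16.9, 18.3 and 22.3 CPM after 6 cycles. The high and low libraries were apart, with 57.2 CPM as the lowest of the high point and 26.3 CPM as the highest of the low point. Constant females had 76.8, 60.8, 54.6 and 92.7 CPM at the high point after 12 cycles and 77.0, 82.0, 72.6 and 84.3 CPM after 6 cycles. At the low point constant females had 28.7, 25.6, 31.5 and 18.1 CPM after 12 cycles and 24.5, 26.9, 24.7 and 32.6 CPM after 6 cycles. The largest SD of any group, 17.1 CPM, was in constant females at the high point after 12 cycles, and even there the lowest library exceeded the highest constant low library, 32.6 CPM.

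Larval levels were lower and closer together. Fluctuating larvae had 10.5, 7.76, 9.38 and 10 CPM at the high point and 5.76, 6.39, 6.81 and 4.19 CPM at the low point, which did not overlap. Constant larvae had 4.77, 6.35, 5.37 and 6.60 CPM at the high point and 6.84, 4.62, 4.50 and 5.63 CPM at the low point. These constant values overlapped throughout and also spanned most of the fluctuating low values.

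**Figure D1:**
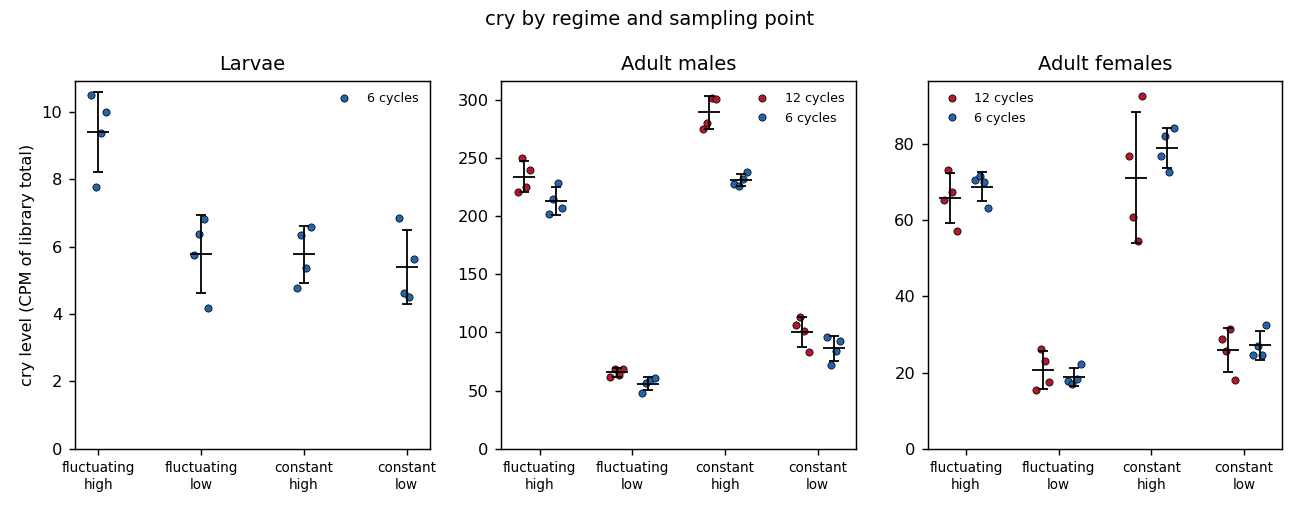
Level of cry in CPM of the library total (vertical axis, linear, a separate scale for each panel) in larvae, adult males and adult females, by regime and sampling point. Each dot is a library, red after 12 cycles and blue after 6, and the bars are the mean and SD of 4 libraries; in both sexes the high points stand well above the low points in both regimes, while in larvae the fluctuating high point stands alone, at 7.76 to 10.5 CPM.

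The comparison of the high with the low point at constant temperature gives the time-of-day difference with no temperature difference by design. In males cry was 2.76-fold higher at the high point, a log2 fold change of 1.46 ± 0.0624 (SE, n = 8 a side, interval 1.33 to 1.59, adjusted p = 1.37e-15). Of the 15847 genes tested in males, 9.64% passed the threshold in this comparison, and cry had the smallest p-value of them all. In females cry was 2.86-fold higher at the high point, a log2 fold change of 1.52 ± 0.119 (interval 1.27 to 1.76, adjusted p = 1.77e-09), where 21.1% of 13471 genes passed and cry ranked 4 by p-value. By size of change, 30 genes that passed in the same direction in males and 36 in females exceeded cry. In larvae no difference passed at constant temperature, with 5.77 ± 0.855 CPM at the high point and 5.40 ± 1.08 CPM at the low point (SD, n = 4 each), a log2 fold change of 0.18 ± 0.192 (interval -0.23 to 0.59, adjusted p = 0.706) where 0.417% of 14634 genes passed. The larval interval leaves out changes of the size seen in adults.

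Under fluctuation the high point is both a time of sampling and 27 °C against 11 °C, and the difference of cry was present in all stages. Males had 3.62-fold more cry at the high point, a log2 fold change of 1.86 ± 0.0631 (interval 1.73 to 1.99, adjusted p = 1.65e-18), with rank 2 by p-value where 30.5% of genes passed. Females had 3.46-fold more, a log2 fold change of 1.79 ± 0.120 (interval 1.55 to 2.04, adjusted p = 7.15e-12), with rank 23 where 25.5% passed. In larvae cry averaged 9.42 ± 1.20 CPM at the high point and 5.79 ± 1.15 CPM at the low point (SD, n = 4 each), a log2 fold change of 0.82 ± 0.193 (interval 0.40 to 1.23, adjusted p = 0.0246), where 4.97% of genes passed. This larval call was lost without replicate 1 or 4 of the high point or replicate 1, 3 or 4 of the low point of the fluctuating larvae, where the value lay between 0.66 and 0.89 over all single omissions and the adjusted p reached 0.073. It was also lost when the fluctuating larvae were fitted alone, with a value of 0.78 and an adjusted p of 0.0892.

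Set against each other, the high-minus-low difference of cry was larger under fluctuation than at constant temperature in males, by 0.39 ± 0.0865 on the log2 scale (interval 0.22 to 0.57, adjusted p = 0.00115), where 23% of genes passed this test of the difference. In females the difference between the regimes was 0.27 ± 0.165 (interval -0.06 to 0.61, adjusted p = 0.266), where 20% of genes passed, and in larvae it was 0.64 ± 0.272 (interval 0.06 to 1.22, unadjusted p = 0.0328, adjusted p = 0.221), where 1.69% passed. The call in males and its absence in females do not make the sexes differ. The male value minus the female one was 0.11 (interval -0.27 to 0.49, adjusted p = 0.881), where 8.11% of genes passed.

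**Figure D2:**
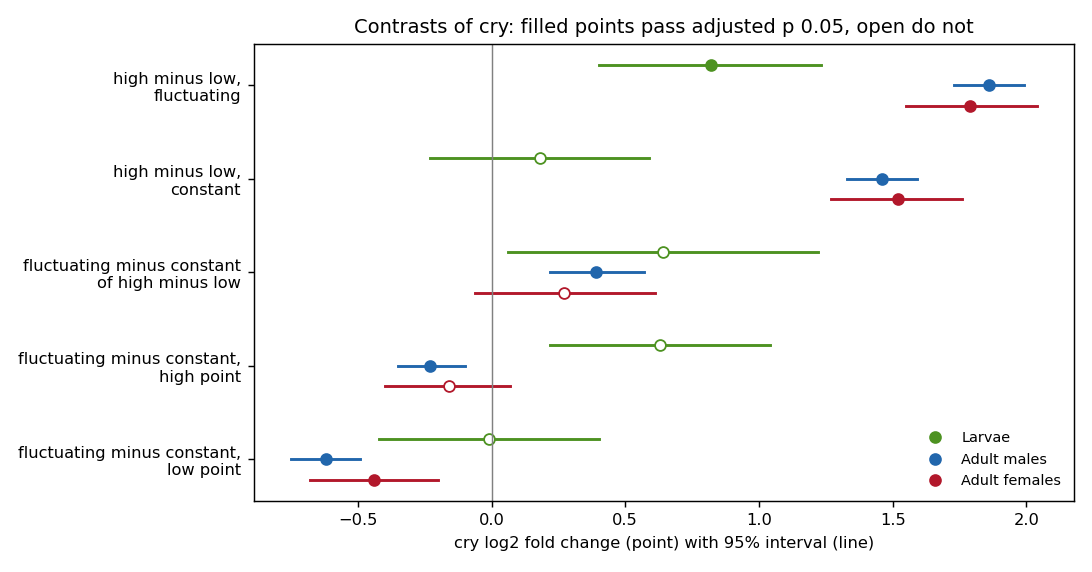
Log2 fold change of cry (horizontal axis) with its 95% interval for 5 comparisons in larvae, males and females; filled points passed an adjusted p of 0.05 in edgeR's quasi-likelihood test and open points did not. The high-minus-low difference passes in all 3 under fluctuation and in both sexes at constant temperature, and its increase under fluctuation passes in males.

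The larger ratio under fluctuation went with a lower level at the low point. At the low point cry averaged 60.8 ± 6.82 CPM in fluctuating males and 93.7 ± 13.5 CPM in constant males (SD, n = 8 each), a log2 fold change of -0.62 ± 0.0614 (adjusted p = 2.67e-08) where 30.5% of genes passed. In females it averaged 19.7 ± 3.72 CPM under fluctuation and 26.6 ± 4.55 CPM at constant temperature (SD, n = 8 each), a log2 fold change of -0.44 ± 0.117 (adjusted p = 0.00715) where 22.9% passed. At the high point the same comparison gave 223 ± 16.1 CPM in fluctuating males and 260.2 ± 32.8 CPM in constant males (SD, n = 8 each), a log2 fold change of -0.23 ± 0.0611 (adjusted p = 0.00512) where 31.9% passed. In females at the high point fluctuating animals had 67.3 ± 5.24 CPM and constant animals 75.1 ± 12.4 CPM (SD, n = 8 each), a log2 fold change of -0.16 with an adjusted p of 0.307 where 30.6% passed. In adult males cry was thus lower under fluctuation at both points, and proportionally more so at the cool one, when the cycle numbers were averaged. Taken apart, the male value at the high point was -0.32 after 12 cycles (adjusted p = 0.00935, 17.5% of genes passed) and -0.13 after 6 cycles (adjusted p = 0.34, 17.4% passed), so that it passed after 12 cycles and not after 6. The male value at the low point passed at both, at -0.56 after 12 cycles (adjusted p = 7.43e-05, 9.3% passed) and -0.68 after 6 cycles (adjusted p = 3.79e-06, 29.8% passed). The female low-point value was -0.30 after 12 cycles (adjusted p = 0.235, 13.4% passed) and -0.58 after 6 cycles (adjusted p = 0.0102, 26.4% passed). The female high-point value passed at neither, at -0.10 and -0.23 (adjusted p = 0.77 and 0.303, 12% and 30.5% passed). None of the 4 values after 12 cycles differed detectably from that after 6. The change was -0.20 in males at the high point (adjusted p = 1, 0.0568% passed) and 0.11 in males at the low point (adjusted p = 0.648, 4.75% passed). It was 0.14 in females at the high point (adjusted p = 0.771, 8.6% passed) and 0.28 in females at the low point (adjusted p = 0.44, 21% passed).

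The picture on the linear scale differed from that of the ratios. In males after 12 cycles the high and low means lay 168 CPM apart under fluctuation and 189 CPM apart at constant temperature, while the ratio of those means was 3.56 under fluctuation and 2.87 at constant temperature. After 6 cycles the distance was 157 CPM under fluctuation and 145 CPM at constant temperature, with ratios of 3.81 and 2.67. In females the distances were 45.1 and 45.2 CPM after 12 cycles and 50.0 and 51.8 CPM after 6 cycles, fluctuating before constant, with ratios of 3.19 and 2.74 after 12 cycles and 3.66 and 2.91 after 6. The test was made on the log2 scale, and distances in CPM are given as descriptions.

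In larvae the comparison of the regimes did not pass at either point. At the high point fluctuating larvae had 9.42 ± 1.20 CPM and constant larvae 5.77 ± 0.855 CPM (SD, n = 4 each), ranges that did not overlap, with a log2 fold change of 0.63 (adjusted p = 0.0749) where 4.37% of genes passed. At the low point fluctuating larvae had 5.79 ± 1.15 CPM and constant larvae 5.40 ± 1.08 CPM, a log2 fold change of -0.01 (adjusted p = 0.986) where 1.11% passed. With library totals alone in place of TMM factors the high-point value was 0.71 with an adjusted p of 0.0282, and with DESeq2 it was 0.61 with an adjusted p of 0.0303, so both of these put it past the threshold.

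The stages were tested against each other directly, with larvae set against both sexes of adults at the same 6 cycles in a fit of all 80 libraries; these tests were added after the values had been seen. The high-minus-low difference of cry was smaller in larvae than in adults at constant temperature, with a larval minus adult value of -1.27 ± 0.177 on the log2 scale (adjusted p = 2.47e-07) where 12.1% of genes passed. It was also smaller under fluctuation, at -1.06 ± 0.175 (adjusted p = 6.1e-06) where 13.7% passed. The increase of that difference under fluctuation did not differ detectably between larvae and adults (0.21 ± 0.248, adjusted p = 0.732, 9.92% passed). The fluctuating-minus-constant value was 0.83 ± 0.175 higher in larvae than in adults at the high point (adjusted p = 0.000522, 14% passed) and 0.62 ± 0.176 higher at the low point (adjusted p = 0.0118, 12.4% passed). At the level itself, larvae minus the mean of the adults gave -3.17 ± 0.0705 on the log2 scale (adjusted p = 3.62e-48), where 83.7% of 16306 genes passed. Without TMM factors this value was -3.52.

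Adult libraries after 12 cycles are replicates 5 to 8 and those after 6 cycles replicates 1 to 4. Age, time under treatment and replicate set therefore cannot be told apart from the number of cycles. The labels give a treatment of 13 days for every adult library. In males cry changed with the number of cycles. Male libraries after 12 cycles averaged 172 CPM and those after 6 cycles 147 CPM (n = 16 each), a log2 fold change of 0.28 ± 0.0433 (adjusted p = 7.7e-06) where 38.3% of genes passed. The male increase passed in 3 of 4 conditions. At the high point it was 0.17 (adjusted p = 0.214) in fluctuating males and 0.37 (adjusted p = 0.00534) in constant males, and at the low point it was 0.35 (adjusted p = 0.00626) in fluctuating males and 0.24 (adjusted p = 0.0491) in constant males, where 9.86%, 13.6%, 16.2% and 21.3% of genes passed in that order. The call in constant males at the low point was lost without the 3 libraries that stood apart, at 0.18 with an adjusted p of 0.125, and in 25 of the 32 fits that left out a single male library, where the value ran from 0.16 to 0.32. In females the averages were 45.9 CPM after 12 cycles and 48.4 CPM after 6 cycles (n = 16 each), a log2 fold change of -0.03 with an adjusted p of 0.805 where 38.7% passed.

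The high-minus-low difference of cry passed at both cycle numbers in each sex and each regime. In males it was 1.77 ± 0.089 under fluctuation and 1.53 ± 0.0883 at constant temperature after 12 cycles, and 1.95 ± 0.0896 and 1.40 ± 0.0881 after 6 cycles, with an adjusted p of 3.21e-11 or lower. The share of genes passing was 19.6% and 11.3% after 12 cycles and 20.5% and 5.02% after 6 cycles. In females it was 1.66 ± 0.169 under fluctuation and 1.46 ± 0.168 at constant temperature after 12 cycles, and 1.92 ± 0.171 and 1.58 ± 0.168 after 6 cycles, with an adjusted p of 7.28e-06 or lower and shares of 13.5%, 4.48%, 18.1% and 14.8% in that order. The regime difference in males was 0.24 ± 0.122 after 12 cycles (adjusted p = 0.215, 14.6% of genes passed) and 0.55 ± 0.122 after 6 cycles (adjusted p = 0.0031, 13.8% passed). The change between the cycle numbers did not itself pass, at -0.31 ± 0.173 (adjusted p = 0.446, 0.745% passed).

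Males had more cry than females in every condition, by 1.53 ± 0.0482 on the log2 scale (adjusted p = 1e-34), a comparison in which 96.1% of 16058 genes passed. On TMM-scaled counts the difference was 2.88-fold. The median male level was 3.62 times the median female level, and both medians fell between the levels of the low and the high point. Beside it, the summed level of 17 photoreceptor markers was 3.29 times higher in males, that of 17 neuron markers 2.82 times, that of 8 glia markers 3.91 times, that of 10 Malpighian tubule markers 2.45 times and that of 9 fat body markers 1.47 times, while that of 15 ovary markers was 0.0404 times and that of 15 testis markers 19.9 times the female level. The summed RNA of these markers thus differed between the sexes together with cry, and its part in the cry difference was not tested. The time-of-day difference did not differ detectably by sex: males minus females gave -0.04 at constant temperature (adjusted p = 0.97, 8.8% of genes passed) and 0.07 under fluctuation (adjusted p = 0.859, 13.2% passed).

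In the order of the 20 group means, male groups of the high point led, from constant males after 12 cycles (289.5 ± 13.8 CPM) to fluctuating males after 6 cycles (213 ± 12.0 CPM). Constant males of the low point came next, with 101 ± 13.1 CPM after 12 cycles and 86.4 ± 10.7 CPM after 6 cycles, and overlapped both each other and the high-point females. The 4 female high-point groups ran from 79.0 ± 5.23 to 65.7 ± 6.59 CPM and overlapped their neighbours. Fluctuating males at the low point, with 65.6 ± 3.78 and 55.9 ± 5.63 CPM, fell among or just below those females. The 4 female low-point groups overlapped their neighbours between 27.2 ± 3.78 and 18.8 ± 2.36 CPM. Larvae came last, where the fluctuating high point stood clear of the other 3 larval groups and those overlapped each other (SD, n = 4 in every group).

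Whole animals mix tissues, so markers of tissues with known clocks were read beside cry. All 17 photoreceptor markers were detected in adults. In males their summed level ran from 6021 to 6721 CPM at the fluctuating high point and from 6414 to 7145 CPM at the fluctuating low point after 12 cycles, and from 5912 to 6285 CPM and from 6373 to 6616 CPM after 6 cycles. The ratio of cry to these markers is given as a description; which cells hold the cry RNA, and the part of tissue composition in its difference, were not tested. For each 1000 CPM of photoreceptor markers the 16 male libraries of the high point had 33.3 to 158 CPM of cry (median 39.8, second highest 48.9) and the 16 of the low point had 7.53 to 20.8 CPM (median 11.8). The value of 158 belongs to the library low in these markers. In females the ratio was 28.8 to 46.3 at the high point (median 34.5) and 8.01 to 19.5 at the low point (median 12.4). In larvae it was 31.1 to 68.7 (median 48.6) and 23.6 to 40.6 (median 35.8), which overlapped. Per 1000 exonic bases the highest of these markers in larvae were Galphaq at 10.2 CPM, rdgB at 4.24 and norpA at 4.01. On that scale ninaE averaged 0.373 CPM in larvae and 1613 in males. The larval ratio is therefore not comparable with the adult ones.

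Single photoreceptor and neuron markers differed between the points as follows. At constant temperature 8 of 17 photoreceptor markers and 6 of 17 neuron markers were higher in females at the high point and none lower, where 21.1% of all genes passed, with medians of 0.22 and 0.24 on the log2 scale beside a median of 0.02 over all genes, against 1.52 for cry. In males at constant temperature 1 photoreceptor and 1 neuron marker were lower at the high point and none higher, where 9.64% of all genes passed. Under fluctuation 4 of 17 photoreceptor markers were lower at the high point in males, where 30.5% of all genes passed, and in females none passed in either direction, where 25.5% passed. The male counts moved without the 3 libraries that stood apart. Then 10 photoreceptor markers were lower and 1 higher under fluctuation, where 37.7% of all genes passed. Of the neuron markers 3 were then lower and 1 higher, against none with all libraries. At constant temperature without all 3, 2 photoreceptor markers were lower and 2 higher and 2 neuron markers were lower, where 9.06% passed. In the full fit under fluctuation, among 10 Malpighian tubule markers 4 were higher and 3 lower at the fluctuating high point in males and 5 and 2 in females, and among 9 fat body markers 2 and 4 in males and 3 and 3 in females. At constant temperature 1 Malpighian tubule marker was higher and 2 lower in males and 3 and 0 in females, and none and 1 of the fat body markers in males and 2 and 2 in females.

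**Figure D3:**
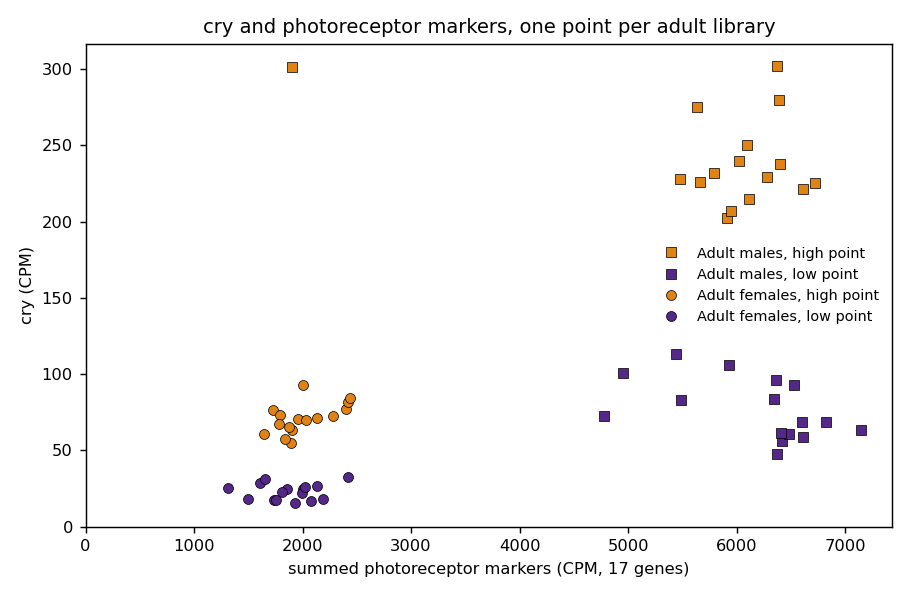
Level of cry (vertical axis, CPM) against the summed level of 17 photoreceptor markers (horizontal axis, CPM) in the 64 adult libraries, squares for males and circles for females, orange for the high point and purple for the low point. High points of each sex lie above its low points along the cry axis. Marker levels shift between some groups, as in fluctuating males after 6 cycles with 5912 to 6285 CPM at the high and 6373 to 6616 CPM at the low point. The lone square at 1903 CPM of markers is the male library named above, with 301 CPM of cry.

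Members of the transcription loop of the clock differed between the sampling points in adults, in both directions. Of its 7 genes (per, tim, Clk, cyc, vri, Pdp1 and cwo), 2 were higher and 3 lower at the high point in fluctuating males and in fluctuating females, where 30.5% and 25.5% of all genes passed. At constant temperature 1 was higher and 2 lower in males, where 9.64% of all genes passed. Without the 3 male libraries that stood apart these counts were 2 and 4 in fluctuating and 2 and 1 in constant males. In that fit 37.7% and 9.06% of all genes passed. At constant temperature 3 were higher and 2 lower in females, where 21.1% passed. The list medians of the log2 fold change lay between -0.12 and 0.08, beside -0.01 to 0.02 over all genes, with members that moved in opposite directions. In larvae none of the 7 passed in either regime, where 4.97% of all genes passed under fluctuation and 0.417% at constant temperature.

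Clk, which encodes the activator that drives per and tim, was higher at the high point together with cry. Its level was 46.4 ± 6.67 CPM at the high and 30.6 ± 3.40 CPM at the low point in fluctuating males and 39.2 ± 4.03 and 30.9 ± 2.93 CPM in constant males (SD, n = 8 each). The log2 fold change of Clk was 0.58 (adjusted p = 4.54e-06) under fluctuation and 0.34 (adjusted p = 0.0131) at constant temperature in males, and 0.77 (adjusted p = 4.03e-08) and 0.77 (adjusted p = 4.36e-07) in females. Its difference between the regimes was 0.24 in males (adjusted p = 0.16) and 0.00 in females (adjusted p = 1). The activator partner cyc changed little, with -0.12 (adjusted p = 0.159) under fluctuation and -0.19 (adjusted p = 0.0448) at constant temperature in males, and 0.03 (adjusted p = 0.705) and -0.07 (adjusted p = 0.365) in females. Without the 3 male libraries that stood apart, the regime difference of Clk in males passed, at 0.32 (adjusted p = 0.0275). In the same fit cyc passed in males under fluctuation, at -0.13 (adjusted p = 0.0474), and not at constant temperature, at -0.12 (adjusted p = 0.152).

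In adults the repressor gene tim ran opposite to cry in both regimes. The repressor gene per did so under fluctuation in both sexes and at constant temperature in females. The gene tim was lower at the high point by much the same amount in both regimes, with log2 fold changes of -1.02 (adjusted p = 7.86e-10) under fluctuation and -1.03 (adjusted p = 1.27e-08) at constant temperature in males, and -0.81 (adjusted p = 1.45e-07) and -0.84 (adjusted p = 7.43e-07) in females. Male tim levels were 244 ± 47.4 CPM at the high and 482 ± 54.8 CPM at the low point under fluctuation (SD, n = 8 each). The gene per fell at the high point under fluctuation, with -2.51 (adjusted p = 4.72e-17) in males and -2.50 (adjusted p = 4.59e-17) in females. At constant temperature per differed by 0.08 in males (adjusted p = 0.661) and by -0.30 in females (adjusted p = 0.0147). The regime difference of per was -2.58 in males (adjusted p = 1.62e-13) and -2.20 in females (adjusted p = 3.07e-12), against 0.39 and 0.27 for cry and 0.01 and 0.03 for tim. In larvae neither passed, and tim differed by 0.85 under fluctuation (adjusted p = 0.158) and 0.41 at constant temperature (adjusted p = 0.548), the same sign as cry.

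In the second loop, vri, a repressor of Clk, was higher at the high point under fluctuation by 0.81 in males (adjusted p = 8.23e-09) and 0.93 in females (adjusted p = 1.87e-10), and at constant temperature by 0.21 in females (adjusted p = 0.0425), with 0.23 in males (adjusted p = 0.0735). Its regime difference passed in both sexes, at 0.58 in males (adjusted p = 0.000474) and 0.72 in females (adjusted p = 1.35e-05). The activator Pdp1 did not pass at either regime in adults, with log2 fold changes from -0.08 to 0.09. The repressor cwo was lower at the fluctuating high point, at -0.54 in males (adjusted p = 0.00143) and -0.28 in females (adjusted p = 0.000126), and higher at the constant high point by 0.31 in females (adjusted p = 0.000175), with 0.24 in males (adjusted p = 0.263). Regime thus altered the high-minus-low difference of per, vri and cwo past the threshold in both sexes and that of cry in males, while tim, cyc and Pdp1 did not pass in either sex, nor did Clk unless the 3 male libraries were left out. Without them vri also passed at constant temperature in males, at 0.25 (adjusted p = 0.0113).

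**Figure D4:**
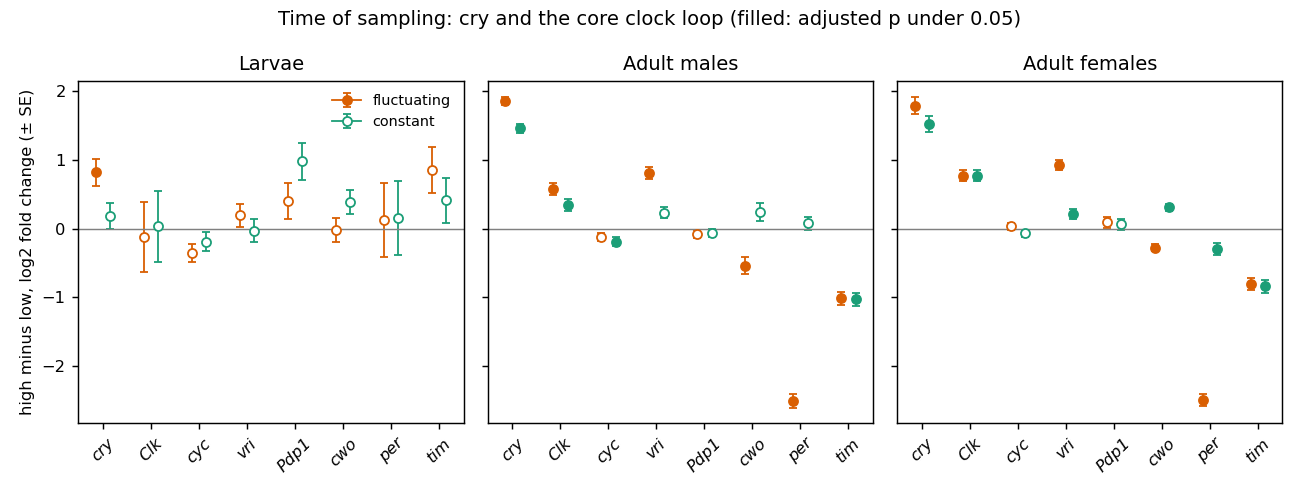
Log2 fold change between the high and the low point (vertical axis, bars are SE) for cry and the 7 genes of the clock transcription loop, under fluctuation (orange) and at constant temperature (green) in larvae, males and females; filled points passed an adjusted p of 0.05. In adults cry is the highest of the 8 genes in both regimes, at 1.46 to 1.86, and tim and per are the lowest under fluctuation.

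Genes whose products act with Cryptochrome were set beside it. Of 7 (jet, qsm, BRWD3, pic, Cul4, Roc1a and Hk), 1 was higher and 1 lower at the high point in fluctuating males and 1 was higher and none lower in fluctuating females, beside 30.5% and 25.5% of all genes. At constant temperature 1 was lower in each sex and none higher, beside 9.64% of all genes in males and 21.1% in females. The gene jet, which encodes the F-box protein Jetlag, was the one that rose at the fluctuating high point, by 0.53 in males (adjusted p = 1.97e-06) and 0.19 in females (adjusted p = 0.0436); with RLE factors in place of TMM no member of the list passed in fluctuating females. At constant temperature jet differed by 0.00 in males (adjusted p = 0.99) and 0.04 in females (adjusted p = 0.773), and its regime difference passed in males, at 0.53 (adjusted p = 0.000407). Male jet levels were 13.1 ± 1.25 CPM at the high and 8.92 ± 0.782 CPM at the low point under fluctuation, and 10.9 ± 1.64 and 10.9 ± 1.07 CPM at constant temperature (SD, n = 8 each). The gene qsm, which encodes a membrane-anchored factor of light input to the clock, was lower at the high point in males in both regimes, at -0.26 (adjusted p = 0.000141) under fluctuation and -0.25 (adjusted p = 0.0014) at constant temperature. BRWD3, whose product is a substrate receptor for Cryptochrome in the Cul4 ubiquitin ligase, was lower at the constant high point in females, at -0.15 (adjusted p = 0.00155). The other members pic, Cul4 and Roc1a of that ligase and Hk, a potassium channel subunit, did not pass between the points in adults. Without the 3 male libraries that stood apart, BRWD3 at 0.23 (adjusted p = 0.000869) and Roc1a at -0.13 (adjusted p = 0.0233) passed in fluctuating males.

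The photolyases phr and phr6-4, DNA repair enzymes of the same protein family as Cryptochrome, did not pass in any comparison of the points in either sex or in larvae. Their log2 fold changes ran from -0.51 to 0.19, the widest being -0.51 for phr6-4 in constant males (adjusted p = 0.169), whose group holds the library with ovarian transcripts. Without the 3 libraries that stood apart this value was 0.03 (adjusted p = 0.873). Unlike cry, phr and phr6-4 were lower in males than in females, at -2.66 (adjusted p = 2.31e-27) and -3.53 (adjusted p = 3.95e-29). Per 1000 exonic bases, cry averaged 84.1 CPM in males, against 4.95 for phr and 1.69 for phr6-4. In females the same scale gave 24.9 for cry, 26.7 for phr and 16.5 for phr6-4, and in larvae 3.48, 5.74 and 2.49. On this scale the clock genes tim and per averaged 52.0 and 19.1 in males and 15.8 and 8.17 in females, and Clk 8.14 in males and 1.64 in females.

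Genes with the pattern most like that of cry were found by Pearson's r over the 20 group means of log2 CPM, after the mean of each stage or sex was removed. Of 12854 genes ranked, 48 had r of 0.8 or more and 22 had r of -0.8 or less; the groups share libraries across genes, and r is a description. The 5 most alike were CG11529 (r = 0.93), CG31106 (r = 0.93), the sugar transporter gene Slc45-1 (r = 0.90), CG31076 (r = 0.90) and Jhbp1 (r = 0.89). CG31106 averaged 89.7 ± 19.5 CPM at the high and 16.9 ± 2.60 CPM at the low point in fluctuating males, and 61.4 ± 19.0 and 25.8 ± 11 CPM in constant males (SD, n = 8 each). Its high-minus-low difference of log2 CPM in males was 2.36 under fluctuation and 1.28 at constant temperature, against 1.86 and 1.46 for cry. CG11529, the most alike, differed by 0.82 under fluctuation and 0.12 at constant temperature in larvae. Its larval levels varied widely, with 300.1 ± 112 CPM at the high and 194 ± 90.5 CPM at the low point under fluctuation (SD, n = 4 each), and its group means in females were below 1 CPM. Over the 4 larval groups alone r was 0.86 for CG11529 and 0.89 for Jhbp1. It was 0.42 for CG31106, 0.14 for Slc45-1 and 0.01 for CG31076. The likeness of these last 3 rests on the adults. Clk ranked 53 (r = 0.79), jet 351 (r = 0.64) and vri 558 (r = 0.58), and per and tim both had r of -0.68.

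The 5 most opposite genes were CG13875 (r = -0.91), Cyp4d21 (r = -0.88), Acsx3 (r = -0.87), the neprilysin-like gene Nepl18 (r = -0.87) and the UDP-glycosyltransferase gene Ugt36A1 (r = -0.87). Cyp4d21, a cytochrome P450 gene, averaged 58.1 ± 9.38 CPM at the high and 214 ± 47.0 CPM at the low point in fluctuating males, and 47.3 ± 10.7 and 151 ± 14.8 CPM in constant males (SD, n = 8 each). Acsx3, of the acyl-CoA synthetase family, averaged 61.5 ± 6.53 CPM at the high and 343 ± 69.2 CPM at the low point in fluctuating males, and 59.0 ± 7.65 and 167 ± 23.5 CPM in constant males. Both were at or below 1.65 CPM in every larval group mean, so that their likeness rests on the adults. Over the 4 larval groups alone r was 0.6 for Cyp4d21 and 0.08 for Acsx3, so neither ran opposite to cry there. It was -0.2 for Ugt36A1, -0.68 for CG13875 and -0.76 for Nepl18. CG13875 was low throughout, with means from 0.816 to 3.62 CPM over all stages, sexes, regimes and points.

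**Figure D5:**
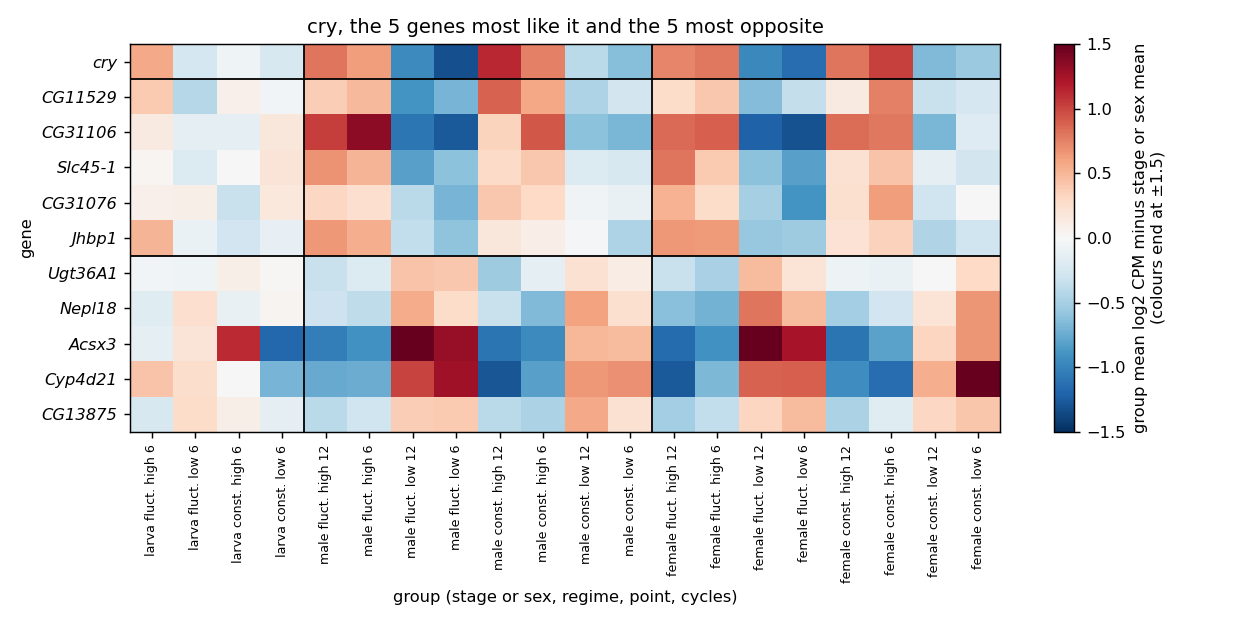
Group mean log2 CPM minus the mean of the stage or sex (colour, ends at ±1.5) for cry, the 5 genes most like it and the 5 most opposite (rows) in the 20 groups (columns). Red marks groups above and blue groups below the mean of the stage or sex; in adults the high-point columns are mostly red and the low-point columns mostly blue for the upper 6 rows, and the reverse for the lower 5, while the larval columns are mixed.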

How the data were processed

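Whole larvae, adult males and adult females were measured by RNA sequencing of oligo(dT)-selected transcripts, with 4 libraries in each of 20 groups, per the labels' protocols. The submitters' processing notes name FastQC, Trimmomatic, HISAT2, StringTie and the BDGP6 assembly, without versions. The authors deposited estimated counts per gene, which they did not scale to library size. They are whole numbers, so rounding changed nothing. Of 17697 gene identifiers 17559 matched the BDGP6.54 annotation, and 138 did not. Of 183786 values from 1 to 24, 36.8% were multiples of 4, against 25% if spread evenly. Replicates were compared in 120 pairs, none of which held identical values; chi-squared per gene was at least 38.19.

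The tests were edgeR 4.0.16 quasi-likelihood F-tests (R 4.3.3) with a trended dispersion and TMM factors, on genes kept by filterByExpr at a minimum count of 10, adjusted by Benjamini-Hochberg. Larvae (14634 genes), males (15847) and females (13471) each had a fit of all their libraries, the 64 adult libraries a fit of 16058 genes, and all 80 libraries a fit of 16306. The 12-cycle and 6-cycle groups had equal weight. Each p-value sets a difference against the spread between these libraries, estimated over all groups of the fit. Levels are CPM of the library total and fold changes are TMM-scaled. TMM factors ran from 0.856 to 1.18 in larvae, 0.935 to 1.05 in males and 0.96 to 1.04 in females. They ran from 0.9 to 1.11 in the fit of adults and from 0.748 to 1.27 in that of all 80 libraries. Leaving the factors out moved the median log2 fold change of all genes by over 0.1 in 4 comparisons. The shift was -0.11 for the high against the low point in fluctuating larvae and 0.12 for the regimes in larvae at the low point. It was 0.21 for males against females and -0.35 for larvae against adults.

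The gene, the lists and the tests were chosen with earlier results of these data known. Named genes were cry, the other genes of the clock loop, light input and photolyase lists, and the 5 most and least like cry by r; other lists (clock kinases and turnover, clock neuropeptides, and markers of photoreceptor, neuron, glia, fat body, Malpighian tubule, ovary and testis) were given as counts and sums. Replicate numbers were checked as pairs by the correlation of deviations from group means. Alternatives were RLE factors, library totals alone, no filter, a robust fit, values divided by 4, the compared groups alone, a replicate block, DESeq2 1.42.0 and each library left out in turn.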

Additional observations from a re-analysis of the deposited data

Results flagged for a closer look

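The lowest cry level among fluctuating females at the high point after 6 cycles, 63.2 CPM in replicate 4, lay apart from the other 3 libraries of its group, which held 70.1 to 71.5 CPM. Its gap to the nearest library was 0.832 of the range of the group, above Dixon's 95% critical value. Of 20 groups examined this was the only one so marked, and chance marks about 1 in 20.

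Larvae differed from adults of the same 6 cycles in 4 tests of the difference itself, which were added after the values had been seen. On the log2 scale the larval value minus the adult value was -1.27 for the high-minus-low difference at constant temperature and -1.06 for that under fluctuation. It was 0.83 for fluctuating minus constant at the high point and 0.62 for the same at the low point.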

How the results depend on the processing

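Of 167 values of 21 comparisons of cry under other settings, 157 kept direction and side of the threshold, and so did 720 of 736 with a library left out. The cause of the other changes was not tested. In larvae the high-minus-low difference under fluctuation fell short with the compared groups alone (0.78), and without single libraries it ran from 0.66 to 0.89. The larval regime difference at the high point passed with library totals alone (0.71) and with DESeq2 (0.61). At the low point, where the value was -0.01, its sign changed with RLE factors (0.01), library totals (0.10), the compared groups alone (0.01), the replicate block (0.00) and DESeq2 (0.01), with a range of -0.08 to 0.15 without single libraries. Males minus females of the constant-temperature difference was 0.01 with RLE factors and with DESeq2, and ran from -0.09 to 0.04 without single libraries; females after 12 against 6 cycles ran from -0.06 to 0.00. Without the 3 male libraries that stand apart, or the first 2 of them, alternatives chosen after seeing the data, male values kept their call except that after 12 against 6 cycles in constant males at the low point (0.18 and 0.17).

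Pairs of samples with the same replicate number had a correlation over 0.1 in 8 of 24 cases in larvae (median r -0.0104, highest 0.539). The same held for 0 of 48 in males, 0 of 48 in females and 3 of 128 of a male with a female. Larval pairs of different number had a median r of 0.00348, and how many of them exceeded 0.1 was not counted. The main fits do not take the numbers as pairs, and whether larval libraries of the same number are linked was not tested. In the comparisons run with the replicate block, which leave out 12 against 6 cycles and larvae against adults, no call on cry changed.

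Counts over all genes moved most in larvae. For the points compared at constant temperature 61 genes passed, against 0 with no filter, 1 with a robust fit, 682 with library totals, 753 with the compared groups alone, 766 with the block and 1407 with DESeq2. Under fluctuation 727 passed, against 240 with the compared groups alone and 1464 with DESeq2; for the regime difference of these 247, against 399 with library totals and 1048 with DESeq2. At the larval high point 639 passed, against 22 with the compared groups alone, 1037 with the block, 1484 with library totals and 1591 with DESeq2, and at the low point 162, against 253 and 525 with the compared groups and DESeq2. In males at constant temperature 1527 passed, against 667 with the compared groups alone, and for its difference between the sexes 1413, against 751. In larvae cry had 450 to 1194 counts per library, the fewest of the 3 stages and sexes.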

Other observations

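Further clock genes were read between the points. Of 11 genes for kinases, phosphatases and turnover of clock proteins, 2 were higher and 3 lower at the high point in fluctuating males and none higher and 2 lower in constant males, where 30.5% and 9.64% of all genes passed. The casein kinase gene dco, known as doubletime, was among them, with a log2 fold change of -0.86 in fluctuating males (adjusted p = 0.00233 by edgeR), beside 0.52 in fluctuating females (adjusted p = 0.149). In females 2 were higher and 1 lower under fluctuation, and none higher and 2 lower at constant temperature, where 25.5% and 21.1% of all genes passed. The same shares apply to the lists that follow. Of 10 clock neuropeptide and output genes, none was higher and 3 were lower in males in each regime, and in females 1 was higher and 2 lower under fluctuation and 2 were higher and 1 lower at constant temperature. The high-point constant male library low in photoreceptor markers summed to 169.9 CPM of these genes, against 227 to 262 CPM in the rest of its group. The low-point constant male library with ovarian transcripts summed to 215 CPM, against 248 to 266 CPM. Male counts of this list without the libraries that stood apart are not given. The output gene takeout (to), which is known to be under clock control, was lower at the high point in all 4 comparisons, at -1.13 in fluctuating males (adjusted p = 4.18e-13), -0.88 in constant males (adjusted p = 1.49e-09), -0.87 in fluctuating females (adjusted p = 2.3e-09) and -0.34 in constant females (adjusted p = 0.00294). Larvae had no call in either list at either regime, where 4.97% of all genes passed under fluctuation and 0.417% at constant temperature. Among glia markers 1 was higher and 3 lower at the high point in fluctuating males and 3 and 3 in fluctuating females. Without the 3 male libraries that stood apart, 37.7% of all genes passed in fluctuating and 9.06% in constant males. Of the 11 genes 4 were then higher and 3 lower in fluctuating males and 1 and 3 in constant males. Of the glia markers 1 was higher and 5 lower in fluctuating males in the same fit.

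Ovary markers were lower at the high point in constant males for 8 of 15 genes, where 9.64% of all genes passed. Their median log2 fold change was -1.11, in a comparison that holds the male library with ovarian transcripts on the low side. Without that library and the one low in photoreceptor markers none of the 15 passed, with a median of -0.06. Under fluctuation 1 of 15 was lower in males, where 30.5% of all genes passed. Without that pair 4 were lower, in a fit whose share of all genes passing is not given here. Of 15 testis markers 2 were higher and 1 lower in constant males, where 9.64% of all genes passed. None passed in fluctuating males, where 30.5% of all genes passed. Without that pair 1 testis marker was higher and 1 lower in constant males, again with no share of all genes given.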
